A study of Drosophila melanogaster with 9 samples.

Results

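The 28 genes described here are the heat shock proteins of Drosophila melanogaster and their constitutive relatives, the heat shock cognates. They are the genes of the deposited count table whose FlyBase symbol begins with Hsp or Hsc followed by digits, together with DnaJ-1, Hsf and stv, and they make up 28 of 17490 genes. Reads per gene were counted in whole heads of flies kept alone for 7 days, flies kept alone for 1 day and flies kept in a group for 7 days. Each of these 3 groups had 3 libraries, each made from 200 heads collected at ZT0.5-2, that is 0.5 to 2 hours after lights on. All flies, the group-housed ones included, were of a single genotype, wild type Canton-S w1118 (iso1CJ). The sources used here do not give their sex or age, or how the flies isolated for 1 day were kept beforehand. They also do not say whether the libraries of a group came from separately reared flies, so p-values measure the spread between these libraries, which may be technical.

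Heat shock proteins are chaperones, which bind unfolded or newly made proteins and help them fold, travel or be degraded. Hsp70-type chaperones work in a cycle of ATP hydrolysis that is driven by J-domain proteins of the Hsp40 family and reset by nucleotide exchange factors, and they pass part of their clients on to Hsp90 or to the ring-shaped chaperonins. Small heat shock proteins hold unfolding proteins without using ATP. The cognates are made in unstressed cells, whereas the inducible Hsp70 genes are nearly silent until heat or another stress activates the transcription factor Hsf.

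Library totals ranged from 39698143 to 53514747 counts. Gut and male reproductive tract transcripts were present in 5 of the 9 head libraries, from all 3 groups: replicates 1 and 3 of 7 days alone, replicates 1 and 2 of 1 day alone, and replicate 2 of the group. Markers of these tissues summed to 700.5 to 1546 CPM (counts per 1000000 counts of the library) in these 5 and to 2.11 to 4.66 CPM in the other 4, and the 5 are called libraries with body tissue. The summed muscle markers also stood apart, at 5412 to 6191 CPM after 7 days alone, 7224 to 7803 CPM after 1 day alone and 5682 to 5814 CPM in the group. Of 24 muscle markers, 12 passed the test as higher at 1 day alone against group, and 12 as lower at 7 days alone against 1 day alone. Head tissue was present throughout: 13 photoreceptor markers summed to 71460 to 77940 CPM after 7 days alone, 63160 to 76580 CPM after 1 day alone and 79400 to 81140 CPM in the group. In bulk heads, fewer cells of a type and less RNA per cell cannot be told apart.

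Levels are compared between genes as TPM, counts divided by the deposited exon length and scaled so that each library has the same total. Hsc70-4, the main Hsp70-type chaperone of the cytosol, stood highest, with a mean of 1247 TPM over the 9 libraries (range 1198 to 1290). Hsp83, the fly Hsp90, followed at 497 TPM. The next 3 genes serve organelles: Hsp60A, the mitochondrial chaperonin, at 337 TPM, Hsc70-3, the BiP of the endoplasmic reticulum, at 238 TPM, and Hsc70-5, the mitochondrial Hsp70, at 194 TPM. DnaJ-1, an Hsp40 of the cytosol, was at 122 TPM, and Hsp110, a nucleotide exchange factor for Hsp70, at 89.2 TPM. The co-chaperone stv, a BAG-domain protein, was at 69.3 TPM and Hsf itself at 53.8 TPM. Down to stv, each gene's lowest library was above the highest library of the next gene in this order. From Hsf downward the ranges of neighbours overlapped, beginning with Hsf (49.7 to 57.6 TPM) and Hsp23 (27.3 to 54.7 TPM). The inducible Hsp70 genes lay at the bottom, with means of 2.29 TPM for Hsp70Bb, 1.24 TPM for Hsp70Bc and 0.234 TPM for Hsp70Bbb.

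**Figure D1:**
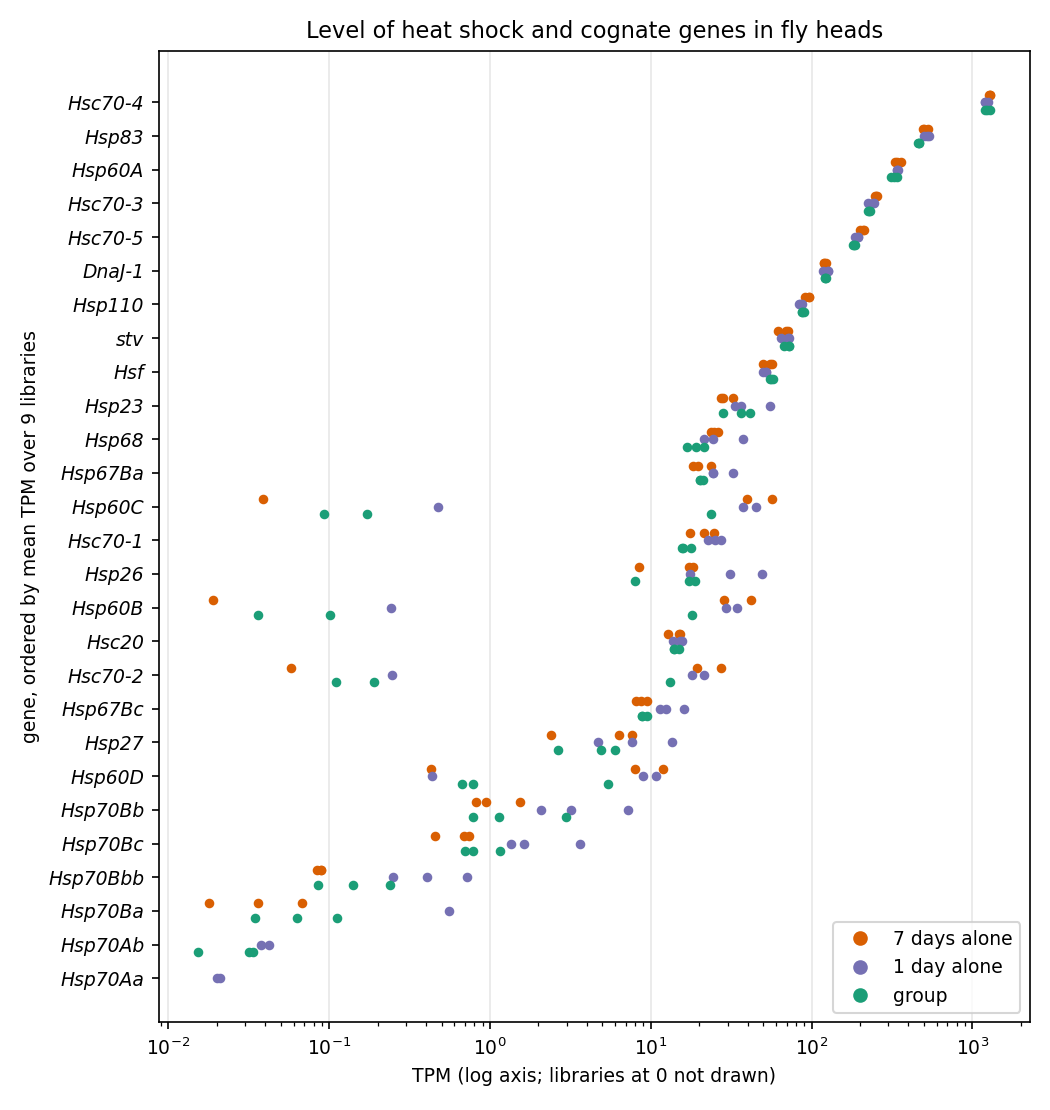
Level of each gene in each head library, in TPM on a log axis, for 7 days alone, 1 day alone and group, with genes ordered by their mean over 9 libraries. Hsc70-4, at 1198 to 1290 TPM, heads the order with little spread, whereas the Hsp60 and Hsc70 paralogues of body tissue and the inducible genes spread widely; libraries at 0 are not drawn, so Hsp22, at 0 throughout, has no row.

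From here on, CPM are relative to the library total scaled with edgeR's TMM factors, and those of marker sums to the unscaled total. Of the 28 genes, 24 passed the filter on low counts; Hsp22, Hsp70Aa, Hsp70Ab and Hsp70Ba did not. Hsp70Bbb passed it through its 3 libraries of 1 day alone and 1 of the group. Calls are genes with p under 0.05 in edgeR's quasi-likelihood test after Benjamini-Hochberg adjustment over all 12963 genes tested. None of the 24 was called at 7 days alone against group, where 0.301% of all genes were. Of the 24, 5 had an unadjusted edgeR p under 0.05, and the share of all genes with such a p was not counted. There limma-voom called 0 of the 24 and 52 of all 12963 genes. DESeq2 called 2 of the 24 and 330 of all genes. At 1 day alone against group 1 of the 24 was called (Hsc70-1, higher), or 4.17%, beside 3.96% of all genes. At 7 days alone against 1 day alone 1 was called (Hsp110, higher), again 4.17%, beside 4.62% of all genes. Both shares lie near the background and say nothing about these genes as a class. In the test of any difference among the 3 groups none was called, beside 4.49% of all genes. Of the 24, 10 had an unadjusted edgeR p under 0.05, Hsp70Bbb among them, again with no share of all genes counted. Without that share, neither these 10 nor the 5 above are read as a result about these genes. For any difference limma-voom called 0 of the 24 and 637 of all genes, and DESeq2 called 9 of the 24 and 1859 of all genes.

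The same libraries can be read without a model, by whether all libraries of a group lay above or below all those of another. Of the 24, 6 lay wholly above and 0 wholly below at 7 days alone against group, or 25% and 0%, where 7% and 8.45% of all genes did. At 1 day alone against group, 10 lay above and 2 below, or 41.7% and 8.33%, beside 9.6% and 15.1% of all genes. At 7 days alone against 1 day alone, 2 lay above and 6 below, or 8.33% and 25%, beside 12.9% and 8.7% of all genes. Hsp70Bbb, kept mainly through its libraries of 1 day alone, is among the 10 and the 6. The median log2 fold change of the 24 was 0.06 at 7 days alone against group and 0.47 at 1 day alone against group, where the medians of all genes were 0.01 and 0.03. At 7 days alone against 1 day alone it was -0.05, beside 0.04 for all genes. The 24 include Hsp60B, Hsp60C, Hsp60D and Hsc70-2, which followed body tissue and differed by 1.53 to 1.80 at 1 day alone against group. In a model with a term for body tissue, the median of the 24 in that comparison was 0.34, beside 0.03 for all genes. It was 0.27 among the libraries with body tissue and 0.18 among those without, beside -0.002 and 0.008 for all genes. The first 2 comparisons share the group libraries and are not independent of each other. As a share of all counts, the 28 genes took 0.426% to 0.447% after 7 days alone, 0.441% to 0.443% after 1 day alone and 0.407% to 0.414% in the group.

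**Figure D2:**
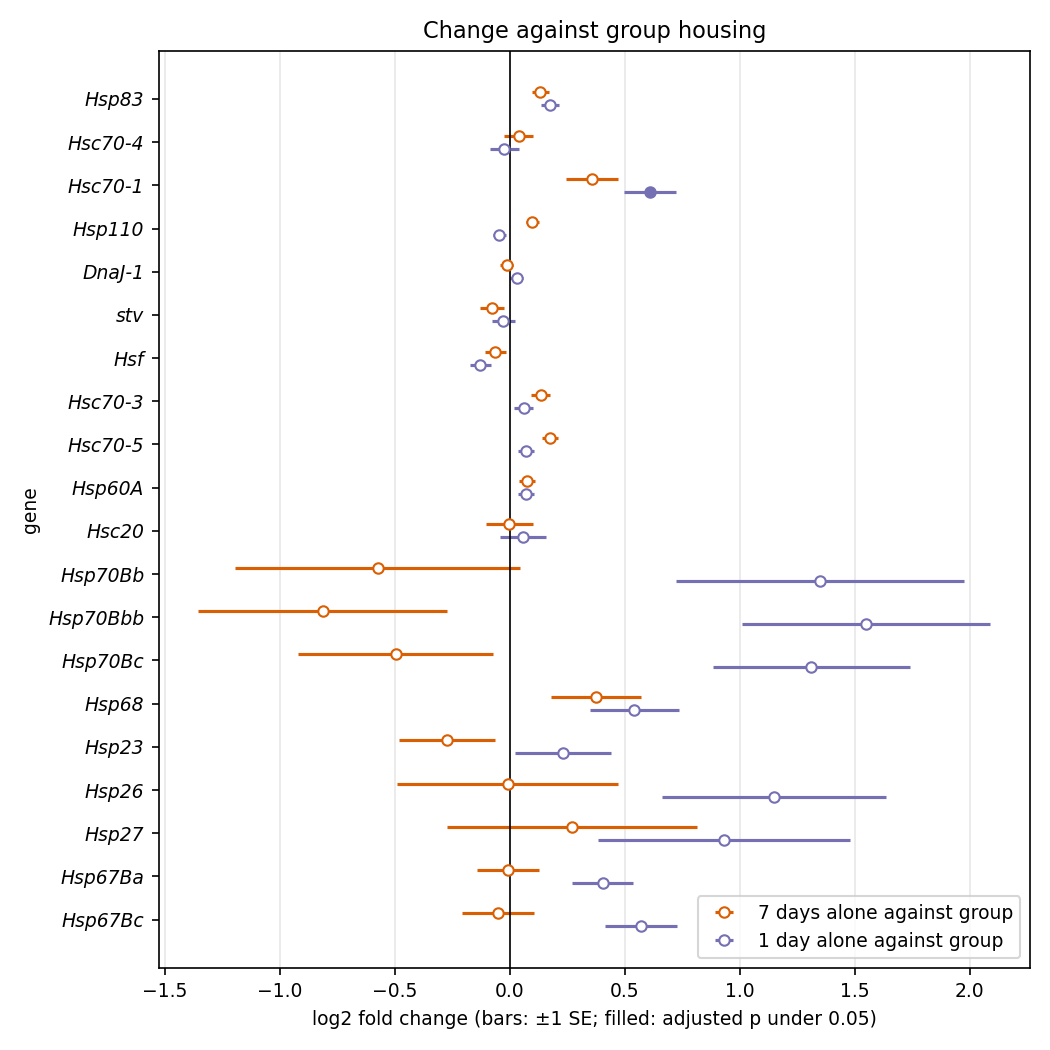
Log2 fold change against group of 20 of the tested genes at 7 days alone and at 1 day alone; bars are 1 standard error either way, and a filled point passed an adjusted p of 0.05. The cognates lie close to 0 with short bars except Hsc70-1, the only filled point at 0.61. Hsp70Bb, Hsp70Bc and Hsp26 lie above 1 at 1 day alone with long bars. Hsp70Bbb is drawn but not read as a result, as it passed the filter mainly through its libraries of 1 day alone.

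Among the cytosolic cognates, Hsc70-1 was higher after 1 day alone. Hsc70-1 (FBgn0001216, chromosome arm 3L, 13974061 to 13977761 in BDGP6, plus strand) encodes an Hsp70 cognate. It had 32.4, 24.7 and 30.0 CPM after 7 days alone, 37.3, 34.5 and 31.8 CPM after 1 day alone, and 21.5, 24.7 and 21.6 CPM in the group. All 3 libraries of 1 day alone were above all 3 of the group, and those of 7 days alone lay between and overlapped both. Hsc70-1 averaged 34.5 ± 2.73 CPM after 1 day alone and 22.6 ± 1.83 CPM in the group (SD, n = 3 each), a log2 fold change of 0.61 (SE 0.114, edgeR adjusted p = 0.0319). After 7 days alone it averaged 29.0 ± 3.93 CPM (SD, n = 3), 0.36 log2 units above the group (SE 0.114, edgeR adjusted p = 0.495). Hsc70-1 also differed with body tissue: libraries with it were 0.23 log2 units higher in a model with a term for body tissue (edgeR adjusted p = 0.0126). With that term the difference at 1 day alone against group was 0.53 (edgeR adjusted p = 0.00291). It was 0.52 among the libraries with body tissue and 0.56 among those without. The summed muscle markers were also highest at 1 day alone, and their part in Hsc70-1 was not tested. The call did not hold when a library was left out from among replicates 1 and 2 of 1 day alone, replicate 3 of 7 days alone or any of the group, where the adjusted p ran from 0.0560 to 0.164 at log2 fold changes of 0.61 to 0.65.

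Hsp83, which folds kinases and hormone receptors among other clients, had 753, 772 and 759 CPM after 7 days alone, 803, 781 and 768 CPM after 1 day alone, and 681, 704 and 697 CPM in the group. Every library of isolated flies was above every group library. The difference was 12.9% at 1 day alone (95% interval 6.11% to 20.2%) and 9.69% at 7 days alone (95% interval 3.07% to 16.7%). Neither passed the edgeR test, with adjusted p = 0.0544 at 1 day alone and 0.414 at 7 days alone. At 1 day alone Hsp83 was called in 2 of the 9 fits that left out 1 library and in 6 of 10 other settings, among them limma-voom (adjusted p = 0.0337) and DESeq2 (adjusted p = 1.76e-13).

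Hsp110 (FBgn0026418, chromosome arm 3L, 14037019 to 14043686, plus strand) resets Hsp70 by exchanging its nucleotide and takes part in dissolving protein aggregates. It had 174, 186 and 177 CPM after 7 days alone, 161, 164 and 162 CPM after 1 day alone, and 165, 167 and 169 CPM in the group. The libraries of 7 days alone were above all others, and those of 1 day alone were below all of the group. Hsp110 averaged 179 ± 6.54 CPM after 7 days alone and 162 ± 1.58 CPM after 1 day alone (SD, n = 3 each), a log2 fold change of 0.14 (SE 0.0296, edgeR adjusted p = 0.0421). Against group the log2 fold change was 0.10 at 7 days alone (edgeR adjusted p = 0.460) and -0.04 at 1 day alone (edgeR adjusted p = 0.525). The call at 7 days against 1 day alone was lost in each of the 9 fits that left out 1 library (log2 fold change 0.06 to 0.15), and with a body tissue term its edgeR adjusted p was 0.111.

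Hsc70-4 did not differ detectably. It had 1693, 1777 and 1800 CPM after 7 days alone, 1638, 1716 and 1695 CPM after 1 day alone, and 1694, 1672 and 1763 CPM in the group, and the groups overlapped. The difference from the group was 2.76% at 7 days alone (95% interval -7.22% to 13.8%) and -1.56% at 1 day alone (95% interval -11.1% to 9.04%).

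DnaJ-1, which delivers unfolded clients to Hsp70, had 127.5, 133.2 and 133.9 CPM after 7 days alone, 137.9, 137.1 and 132.2 CPM after 1 day alone, and 133.4, 134.1 and 130.9 CPM in the group. Its groups overlapped, with differences from the group of -0.93% at 7 days alone (95% interval -5.36% to 3.70%) and 2.2% at 1 day alone (95% interval -2.37% to 6.98%). The co-chaperone stv had 126.8, 131.3 and 116.9 CPM after 7 days alone, 131.4, 133.6 and 123.3 CPM after 1 day alone, and 134.7, 127.3 and 133.8 CPM in the group. The stv groups also overlapped, with differences of -5.24% at 7 days alone (95% interval -12.8% to 3.00%) and -1.88% at 1 day alone (95% interval -9.73% to 6.66%).

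**Figure D3:**
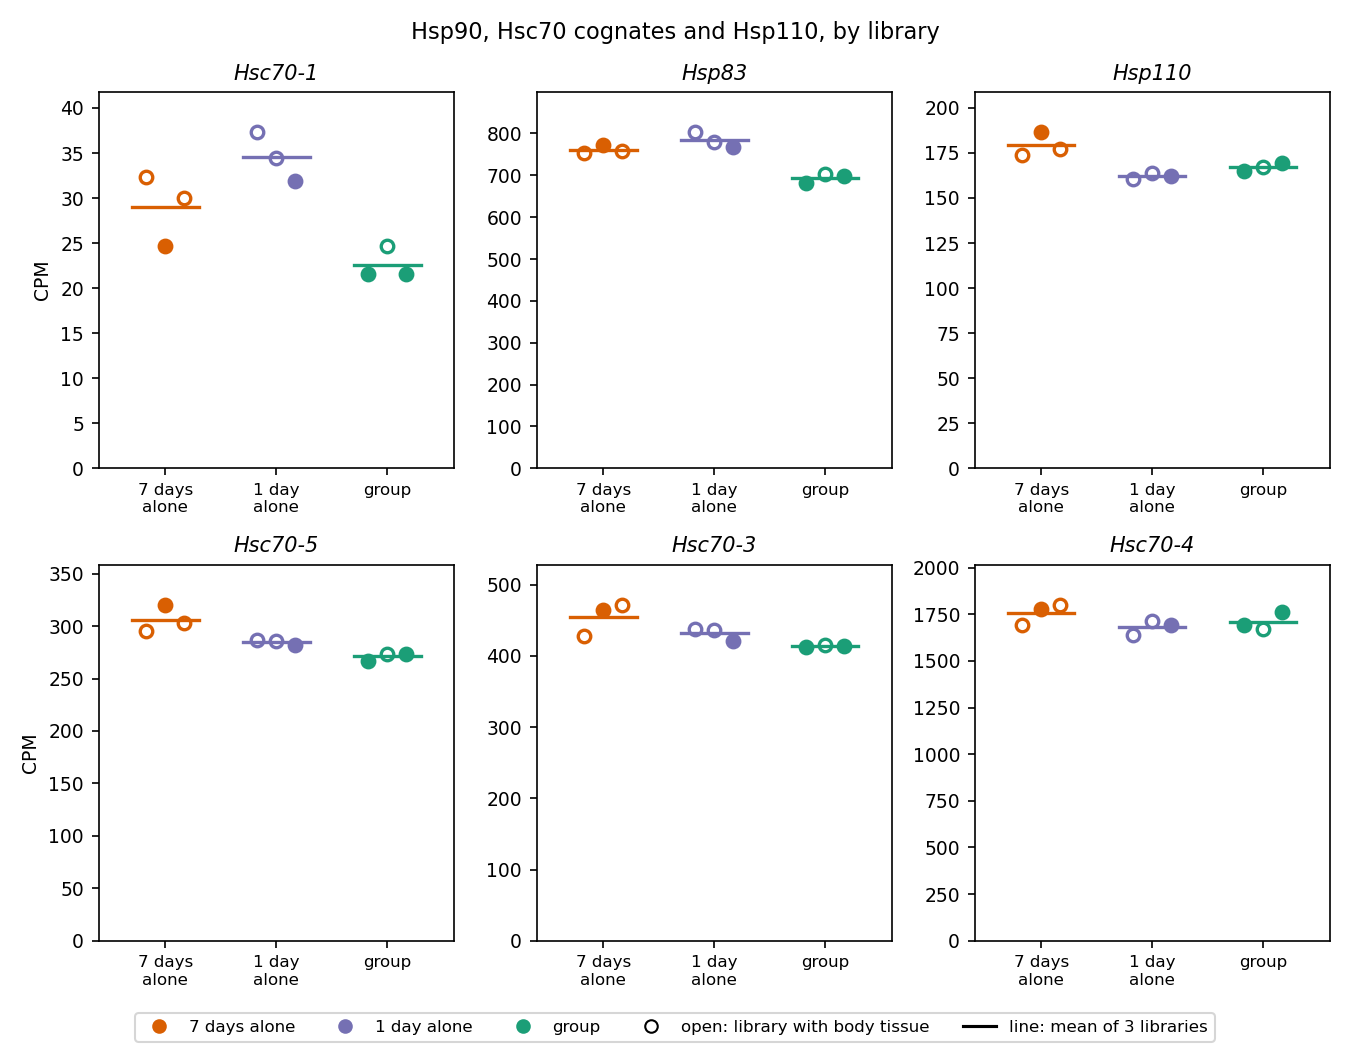
CPM of 6 genes (Hsp83, Hsp110 and Hsc70 cognates) in each library after 7 days alone, after 1 day alone and in the group. Lines are means of 3 libraries and open points are libraries with body tissue. Hsc70-1 is highest after 1 day alone (31.8 to 37.3 CPM), Hsp83 is higher in both isolated groups than in the group, and the libraries of 7 days alone are highest for Hsp110 and Hsc70-5.

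Hsf, the factor that switches on the inducible genes, had 77.2, 85.2 and 75.5 CPM after 7 days alone, 76.3, 76.1 and 75.0 CPM after 1 day alone, and 84.5, 82.5 and 81.5 CPM in the group. The libraries of 1 day alone lay below all of the group, and those of 7 days alone overlapped both. The log2 fold change at 1 day alone against group was -0.13 (SE 0.0455, edgeR adjusted p = 0.188). These are transcript levels; Hsf is known to be regulated mainly as a protein.

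None of the 4 organelle chaperones was called. Hsc70-5 had 295, 320 and 303 CPM after 7 days alone, 287, 286 and 282 CPM after 1 day alone, and 267, 274 and 273 CPM in the group. Its 3 groups did not overlap at all. Hsc70-5 averaged 306 ± 12.8 CPM after 7 days alone, against 271 ± 3.83 CPM in the group (SD, n = 3 each), a log2 fold change of 0.17 (SE 0.0343) with the lowest edgeR adjusted p of the 24 in that comparison, 0.143. DESeq2 gave it an adjusted p of 4.64e-05, limma-voom 0.186 and the body tissue term 0.221. Without replicate 2 of 7 days alone the log2 fold change was 0.09 (edgeR adjusted p = 0.562), and it was 0.08 among the libraries with body tissue and 0.24 among those without.

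Hsc70-3 had 427, 464 and 472 CPM after 7 days alone, 438, 437 and 421 CPM after 1 day alone, and 412, 416 and 414 CPM in the group. Both isolated groups lay above the group and overlapped each other. Hsp60A had 431, 437 and 425 CPM after 7 days alone, 424, 424 and 442 CPM after 1 day alone, and 407, 398 and 423 CPM in the group, in the same arrangement. The log2 fold changes at 7 days alone against group were 0.13 for Hsc70-3 (edgeR adjusted p = 0.496) and 0.07 for Hsp60A (edgeR adjusted p = 0.865). Hsc20, a J-domain protein of iron-sulphur cluster assembly that the symbol rule takes in, ranged from 6.14 to 7.47 CPM with overlapping groups.

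The inducible Hsp70 genes were low throughout. The 6 near-identical copies lie on chromosome arm 3R in 2 places, with Hsp70Aa and Hsp70Ab at 11954163 to 11960909 and Hsp70Ba, Hsp70Bbb, Hsp70Bb and Hsp70Bc at 12465453 to 12511461. How reads matching several copies were counted is not given in the sources used here, so the split among copies is uncertain. Summed, the 6 copies had 2.72, 2.19 and 1.70 CPM after 7 days alone, 13.7, 6.54 and 4.90 CPM after 1 day alone, and 5.35, 2.49 and 2.05 CPM in the group. Behind these sums stood 79 to 143 counts per library after 7 days alone, 211 to 548 after 1 day alone and 102 to 284 in the group. Each library of 1 day alone was above each of 7 days alone, while its lowest library lay below the highest of the group.

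Most of these counts fell on Hsp70Bb, with 1.75, 1.15 and 0.991 CPM after 7 days alone, 8.46, 3.78 and 2.53 CPM after 1 day alone, and 3.50, 1.37 and 0.925 CPM in the group. Its log2 fold change was 1.35 at 1 day alone against group (SE 0.626, edgeR adjusted p = 0.315) and -1.92 at 7 days against 1 day alone (edgeR adjusted p = 0.164). Hsp70Bc had 0.800, 0.909 and 0.560 CPM after 7 days alone, 4.33, 1.61 and 2.02 CPM after 1 day alone, and 1.39, 0.862 and 0.945 CPM in the group. For Hsp70Bc the libraries of 1 day alone lay above all others, with a log2 fold change of 1.31 against group (SE 0.428, edgeR adjusted p = 0.153) and of -1.81 at 7 days against 1 day alone (SE 0.435, edgeR adjusted p = 0.0683). With a body tissue term the second of these was called (edgeR adjusted p = 0.0350), in a model that called 6.9% of all genes in that comparison. It was called in none of the 9 fits that left out 1 library, and limma-voom gave an adjusted p of 0.272. Hsp70Bbb had 5 counts in each library after 7 days alone, 34, 20 and 13 counts after 1 day alone, and 15, 9 and 5 counts in the group; as it passed the filter mainly through the libraries of 1 day alone, no test of it is given. Of the copies not tested, Hsp70Ba had at most 7 counts except in replicate 2 of 1 day alone, with 27, and Hsp70Aa and Hsp70Ab had at most 2.

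Hsp68, an inducible member of the Hsp70 family elsewhere on 3R, had 28.2, 27.3 and 28.7 CPM after 7 days alone, 42.2, 27.4 and 24.9 CPM after 1 day alone, and 24.2, 21.8 and 19.0 CPM in the group. Every library of isolated flies was above every group library. The log2 fold changes of Hsp68 were 0.38 at 7 days alone (edgeR adjusted p = 0.880) and 0.54 at 1 day alone (edgeR adjusted p = 0.192). Replicate 1 of 1 day alone was the highest library for all 4 tested genes of the inducible Hsp70 family, and also for Hsp23, Hsp26 and Hsp27. That library has body tissue. In the model with a body tissue term, libraries with it differed by 0.31 log2 units for Hsp70Bb and -0.07 for Hsp70Bc (edgeR adjusted p = 0.756 and 0.923). The values for Hsp68 and Hsp23 were 0.18 and 0.17 (edgeR adjusted p = 0.477 and 0.543), and those for Hsp26 and Hsp27 are given below. The part of body tissue in the high values of that library was not tested. At 1 day alone against group, Hsp70Bc differed by 1.56 log2 units among the libraries with body tissue and by 0.79 among those without, where each group holds at most 2 libraries.

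**Figure D4:**
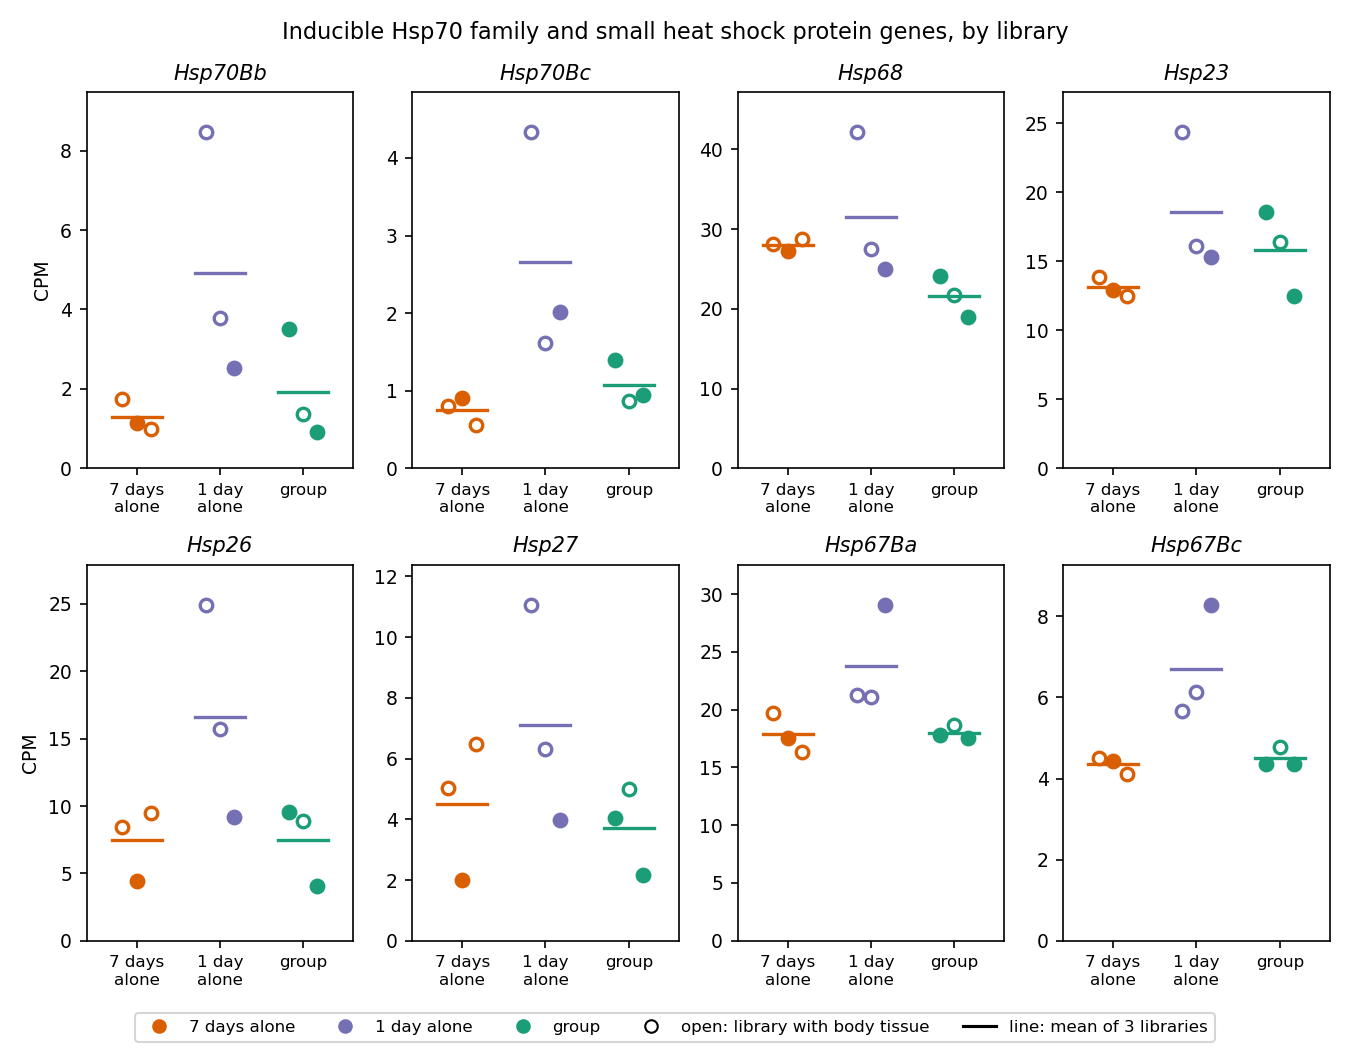
CPM of 8 inducible Hsp70-family and small heat shock protein genes in each library after 7 days alone, after 1 day alone and in the group; lines are means of 3 libraries and open points are libraries with body tissue. One library of 1 day alone stands highest for the Hsp70 genes, Hsp68, Hsp23, Hsp26 and Hsp27 (8.46 CPM for Hsp70Bb), and another for Hsp67Ba and Hsp67Bc (29.1 and 8.28 CPM).

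The small heat shock protein genes among the 28 sit together in the 67B cluster, with 6 genes within 14.2 kb (chromosome arm 3L, 9371511 to 9385694). None was called. The 2 nearest to a call were those at which replicate 3 of 1 day alone, a library without body tissue, stood highest. Hsp67Bc, known as a partner of stv in autophagy of misfolded proteins, had 4.49, 4.44 and 4.12 CPM after 7 days alone, 5.66, 6.13 and 8.28 CPM after 1 day alone, and 4.37, 4.78 and 4.36 CPM in the group. All libraries of 1 day alone were above all others. The log2 fold change of Hsp67Bc was 0.57 at 1 day alone against group (SE 0.156, edgeR adjusted p = 0.0993) and -0.62 at 7 days against 1 day alone (edgeR adjusted p = 0.0766). With a body tissue term both were called (edgeR adjusted p = 0.0496 and 0.0394), in models that called 5.62% and 6.9% of all genes. Neither was called in any of the 9 fits that left out 1 library. Hsp67Bc differed at 1 day alone against group by 0.29 log2 units among the libraries with body tissue and by 0.91 among those without.

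Hsp67Ba, another gene of the cluster, had 19.7, 17.6 and 16.4 CPM after 7 days alone, 21.3, 21.1 and 29.1 CPM after 1 day alone, and 17.8, 18.7 and 17.6 CPM in the group, again with all libraries of 1 day alone on top. The log2 fold change was 0.40 at 1 day alone against group (edgeR adjusted p = 0.161). On the other strand, asRNA:CR43481 covers 75.9% of its exon, and at 0.402 to 0.553 CPM it took few of the counts. The library in which Hsp67Ba and Hsp67Bc peaked also had the highest summed muscle markers, 7803 CPM, and the part of muscle in their levels was not tested.

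Hsp23 and Hsp26, small heat shock proteins of the cytosol, and Hsp27, found in the nucleus, followed another order of libraries. Hsp23 had 13.9, 12.9 and 12.5 CPM after 7 days alone, 24.3, 16.1 and 15.3 CPM after 1 day alone, and 18.5, 16.4 and 12.5 CPM in the group. Hsp26 had 8.44, 4.42 and 9.50 CPM after 7 days alone, 24.9, 15.7 and 9.19 CPM after 1 day alone, and 9.53, 8.90 and 4.04 CPM in the group. Among these 3 genes, 2 groups stood apart only for Hsp23 at 7 days against 1 day alone, with a log2 fold change of -0.50 (edgeR adjusted p = 0.271).

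Hsp26 differed by 1.15 log2 units at 1 day alone against group (SE 0.486, edgeR adjusted p = 0.267). Hsp27 ranged from 2.01 to 6.47 CPM after 7 days alone, from 3.99 to 11.1 CPM after 1 day alone and from 2.17 to 4.99 CPM in the group. Hsp27 was 1.09 log2 units higher in libraries with body tissue (edgeR adjusted p = 0.0147), and Hsp26 0.85 higher (edgeR adjusted p = 0.0622).

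Hsp22, a small heat shock protein of mitochondria, had 0 counts in all 9 libraries. All of its exon bases (1900, or 100%) lie in exons of CG4456 on the same strand, which had 0 to 14 counts. Since reads shared by both genes may have been left uncounted, the 0 of Hsp22 does not bear on its expression.

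A last set of 4 genes followed body tissue. Hsp60B, a paralogue of the chaperonin that is needed for sperm formation, had 30.2, 0.0216 and 47.9 CPM after 7 days alone, 38.2, 32.6 and 0.278 CPM after 1 day alone, and 0.113, 20.3 and 0.0402 CPM in the group. The 5 high libraries are the 5 with body tissue. In the model with a body tissue term, libraries with it were higher by 7.97 log2 units for Hsp60B and 7.43 for Hsp60C. For Hsc70-2 and Hsp60D they were higher by 6.81 and 3.81. Hsp60D reached the level set by the filter in 9 libraries (edgeR adjusted p = 1.59e-05). Hsp60B, Hsp60C and Hsc70-2 reached it in 6, the 5 with body tissue and replicate 3 of 1 day alone. As these genes passed mainly where they are high, no p-value of body tissue is given for them. In those 5 libraries the genes kept a narrow ratio to Hsp60B, at 1.24 to 1.36 for Hsp60C, 0.608 to 0.724 for Hsc70-2 and 0.250 to 0.280 for Hsp60D. Without body tissue, Hsp60D stayed at 0.433 to 0.772 CPM, or 19 to 41 counts. None of the 4 was called between housing groups.

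**Figure D5:**
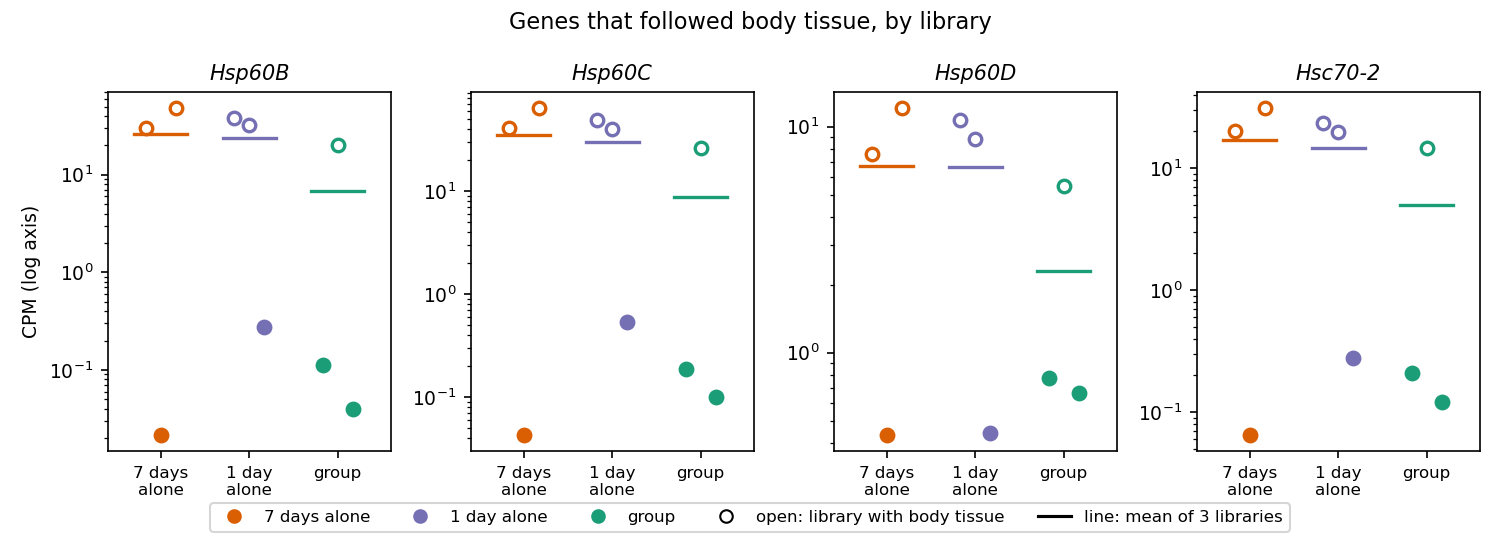
CPM of Hsp60B, Hsp60C, Hsp60D and Hsc70-2 in each library on a log axis, after 7 days alone, after 1 day alone and in the group; lines are means of 3 libraries and open points are libraries with body tissue. The open points lie above the filled ones in every group, at 20.3 to 47.9 CPM for Hsp60B.

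The spread over the 9 libraries differed between classes. The coefficient of variation was 2.32% to 20.1% for the cytosolic cognates and partners (DnaJ-1 to Hsc70-1) and 3.26% to 6.36% for the organelle chaperones. It was 24.0% to 90.6% for the tested inducible Hsp70 family and 19.2% to 60.6% for the tested small heat shock proteins. The 90.6% is that of Hsp70Bbb, which passed the filter mainly through its libraries of 1 day alone, and Hsp70Bb was next at 88.4%. For the paralogues of body tissue it was 91.4% to 102%. That class was set by how its genes followed body tissue in these libraries, so its wide spread is not a separate result. Counting error is a larger part of the spread at low counts. The values describe these libraries and are not compared by a test.

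Other chaperone genes were counted in 7 lists. Over all genes, 0.247% were called higher and 0.054% lower at 7 days alone against group, and 1.25% and 2.71% at 1 day alone against group. The shares at 7 days against 1 day alone were 3.11% higher and 1.51% lower. Among 10 tested Hsp40 genes, 13 co-chaperones of Hsp70 and Hsp90, and 12 mitochondrial chaperones and proteases, none was called in any of the 3 comparisons of groups. Of 6 other small heat shock protein genes, 1 was called: CG7409, with an alpha-crystallin domain, averaged 60.7 ± 5.32 CPM after 7 days alone, 109 ± 12.1 CPM after 1 day alone and 57.4 ± 1.23 CPM in the group (SD, n = 3 each). CG7409 rose at 1 day alone against group by 0.93 log2 units (SE 0.0904, edgeR adjusted p = 0.00357) and was lower at 7 days against 1 day alone, by -0.85 (edgeR adjusted p = 0.00446). Both calls held in each of the 9 fits that left out 1 library. In a fit of the 6 libraries of isolated flies alone, the call at 7 days against 1 day alone was lost (edgeR adjusted p = 0.0690). The summed muscle markers were also highest at 1 day alone, and their part in CG7409 was not tested.

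Of 16 tested chaperones and stress-response genes of the endoplasmic reticulum, 3 fell at 1 day alone against group and none rose, where 2.71% of all genes were called lower and 1.25% higher. Cnx99A, a calnexin, averaged 297 ± 7.18 CPM after 1 day alone, against 399 ± 15.0 CPM in the group, a log2 fold change of -0.43 (SD, n = 3 each; edgeR adjusted p = 0.00591). The ATF4 homologue crc changed by -0.38 (edgeR adjusted p = 0.00532), and Edem1, of the pathway that removes misfolded proteins, by -0.27 (edgeR adjusted p = 0.0180). At 7 days against 1 day alone Cnx99A was higher by 0.41 (edgeR adjusted p = 0.00822) and crc by 0.24 (edgeR adjusted p = 0.0279). The 13 photoreceptor markers had a median log2 fold change of -0.37 and 2 called lower at 1 day alone against group, and of 0.20 and 1 called higher at 7 days against 1 day alone. Their part in the values of Cnx99A, crc and Edem1 was not tested. Leaving out replicate 3 of 7 days alone ended the calls at 1 day alone against group for crc (adjusted p = 0.0538) and Cnx99A, which was also lost without replicate 1 or 2 of the group (adjusted p up to 0.0615). Edem1 kept its call only without replicate 2 or 3 of 1 day alone. At 7 days against 1 day alone, Cnx99A lost its call without replicate 2 or 3 of 7 days alone or replicate 2 of the group, and crc in all fits but that without replicate 3 of 1 day alone.

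Of 13 tested subunits of the CCT chaperonin and prefoldin, CCT7 rose at 1 day alone against group by 0.20 log2 units (edgeR adjusted p = 0.0360) and CCT2 was lower at 7 days against 1 day alone, by -0.22 (edgeR adjusted p = 0.0447). Of 30 tested proteasome genes, the regulatory subunit Rpn2 rose at 7 days alone against group by 0.21 (edgeR adjusted p = 0.0407) and Rpn7 at 1 day alone against group by 0.18 (edgeR adjusted p = 0.0218). At 7 days against 1 day alone Rpn2, Rpn1 and Rpn6 were higher by 0.19, 0.16 and 0.17 (edgeR adjusted p 0.0125, 0.0264 and 0.0419). With a body tissue term, of these CCT and proteasome calls only Rpn2 at 7 days against 1 day alone passed (edgeR adjusted p = 0.0370). Without each library in turn they passed in at most 2 of 9 fits: CCT7 without replicate 3 of 1 day or 1 of 7 days alone, CCT2 without replicate 2 or 3 of 1 day alone, Rpn2 against group without replicate 3 of 1 day alone, and Rpn7 without replicate 2 of 1 day or 1 of 7 days alone.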

How the data were processed

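The library kit was TruSeq stranded mRNA LT, per the labels. The authors used bcl2fastq 2.20, STAR 2.4.2a and featureCounts, per the submitters' processing notes; for counting settings, annotation and genome build, the sources used here give nothing. Deposited by the authors are counts, whole reads per gene and library with no normalization. Symbols came from BDGP6 (Ensembl) by identifier, matching 17288 of 17490 genes; all 28 genes described had the same span there.

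Counts were fitted with edgeR 4.0.16 (R 4.3.3; filterByExpr, TMM, quasi-likelihood test, all 9 libraries, group as the only term), called two-sided at an adjusted p under 0.05. SE is the absolute log2 fold change over the square root of F. Marker sums are CPM of the unscaled library total; body tissue means gut and male tract markers over 50 CPM. Tests were tested on simulated data. Alternatives were RLE and upper quartile scaling, no or a 1 CPM filter, DESeq2 1.42.0, limma-voom 3.58.1, a replicate block, a body tissue term, a gene length offset, only the groups compared, subsets by body tissue, and leaving out each library.

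Genes, lists and alternatives were chosen with earlier results of these data known. Genes called or with a mean of at least 50 CPM get every library's value, as do others of the inducible classes; of each list, up to 4 called genes per comparison are named. Replicates differed beyond sampling noise. Intervals cover the spread between libraries. Figures were drawn with matplotlib 3.10.9 (Python 3.11.15, pandas 2.3.3).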

Additional observations from a re-analysis of the deposited data

Results flagged for a closer look

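Hsp110 was flagged for its change against group, which was 0.10 log2 units at 7 days alone and -0.04 at 1 day alone. The difference of 0.14 (edgeR adjusted p = 0.0421) is the comparison of 7 days with 1 day alone given above, not a second test. That call held in 0 of the 9 fits that left out 1 library and in 2 of 11 other settings. The libraries of 7 days alone lay above all those of 1 day alone. The difference was 0.08 among the libraries with body tissue and 0.20 among those without.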

How the results depend on the processing

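The number of the 24 tested genes called was 0 at 7 days alone against group, 1 at 1 day alone against group, 1 at 7 days against 1 day alone and 0 for any difference. At 7 days alone against group it became 1 with the length offset and 2 with DESeq2. At 1 day alone against group it became 2 with RLE, upper quartile scaling, the 1 CPM filter, the body tissue term or limma-voom, 4 with the length offset and 6 with DESeq2. At 7 days against 1 day alone it became 0 with RLE, upper quartile scaling, no filter, only the groups compared, limma-voom or only libraries with body tissue. It became 2 with the length offset, 4 with the body tissue term and 5 with DESeq2, beside 927, 895 and 1505 of all genes. Hsp110, the call of the main fit there, was higher. The 2 and the 4 were all lower and did not include Hsp110. The 5 were Hsp110, higher, and 4 genes that were lower. For any difference the number of the 24 called became 1 with the 1 CPM filter, 2 with upper quartile scaling or the body tissue term, 4 with the length offset and 9 with DESeq2. Leaving out each library in turn gave 0 to 1, 0 to 2, 0 to 2 and 0 to 3 genes in these comparisons. The cause of these shifts in number was not tested. At 7 days against 1 day alone, Hsp70Bbb is among the 2 with the length offset and the 4 with the body tissue term. Without replicate 3 of 1 day alone it is among the 2 called there and the 3 for any difference. Hsp70Bbb passed the filter mainly through its libraries of 1 day alone, so its calls are not read as results.

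With the replicate block, 0 of the 24 were called in each comparison; Hsc70-1 kept its log2 fold change of 0.61 at 1 day alone against group with an adjusted p of 0.123. Equally numbered libraries, as deviations from their group means, correlated at r from -0.233 to 0.0424. Unequally numbered libraries were not compared, so this does not decide whether the numbers pair them. DnaJ-1, not called in the main fit, was at -0.04 at 7 days against 1 day alone and at 0.0091 among the libraries without body tissue, a difference with no test. In that comparison DnaJ-1 was called lower in 1 of the 9 fits that left out 1 library, that without replicate 3 of 1 day alone (edgeR adjusted p = 0.0452).

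Over all genes the calls were 39, 513, 599 and 582. They became 0, 162, 126 and 117 with the replicate block, 142, 728, 895 and 902 with the body tissue term, 86, 830, 927 and 930 with the length offset, and 330, 1561, 1505 and 1859 with DESeq2. They became 61 at 7 days alone against group with the 1 CPM filter, 348 at 7 days against 1 day alone and 356 for any difference with no filter, and 64, 133 and 32 with only the groups compared. Among libraries with body tissue, 273 were called at 7 days against 1 day alone. The length offset moved the split of higher and lower calls to 352 and 478, against 162 and 351, at 1 day alone against group, and to 499 and 428, against 403 and 196, at 7 days against 1 day alone. Leaving out each library gave 3 to 193, 137 to 881, 72 to 1167 and 90 to 1084 genes. Fold changes followed gene length (Spearman rho across genes -0.27, -0.41 and 0.13), and the offset left rho at -0.15, -0.19 and -0.04; genes are not independent replicates.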

Other observations

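In the 67B cluster, CG4461, a further small heat shock protein gene that the symbol rule leaves out, had 34.3, 32.1 and 28.4 CPM after 7 days alone, 34.3, 33.4 and 43.4 CPM after 1 day alone, and 30.3, 32.0 and 29.4 CPM in the group. Its highest library was replicate 3 of 1 day alone, the one in which Hsp67Ba and Hsp67Bc were also highest, whereas Hsp23, Hsp26 and Hsp27 of the same cluster were highest in replicate 1. At 1 day alone against group its log2 fold change was 0.28 (edgeR adjusted p = 0.258). The gene was chosen after its values were seen.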
